A study of Homo sapiens with 12 samples.

Results

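The heat shock chaperones described here are 10 genes, taken by name from the 61782 gene rows of each table: HSPA8, HSPA4, DNAJA1, HSP90AA1 and HSP90AB1 of the cytosol, HSPA5 and HSP90B1 of the endoplasmic reticulum (ER), and HSPA9, HSPD1 and HSPE1 of the mitochondria. All 10 were found, 9 of them with a row of their own. HSPE1 shares its row with MOB4, an unrelated gene next to it, and with the read-through HSPE1-MOB4, so that its value cannot be assigned to 1 gene.

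To find mRNAs held by Argonaute 2 (AGO2), the protein that carries microRNAs to their target transcripts, RNA was immunoprecipitated from K562 cells and sequenced (AGO-RIP). K562 is a human erythroleukemia cell line, here with an inducible C/EBPα (K562-C/EBPα-ER), and no estradiol treatment is given for these samples. All cells carried a lentiviral vector with a red fluorescent reporter, were kept in puromycin and are transduced populations rather than clones. Cells with either the miR-143 vector pLV-miR-143 or its control, pLV-control, were precipitated with an antibody against AGO2 or with unspecific IgG, the mock precipitate, which gives 4 groups of 3 samples: control_IgG, control_AGO, miR143_IgG and miR143_AGO. The values are the authors' average FPKM of each group (fragments scaled to the length of the transcript and to the mapped fragments of the library), so that each gene has 1 value per group, and neither a spread over replicates nor a test can be given. In such bulk precipitates, fewer cells with an mRNA, less of it per cell and less of it held by the antibody cannot be told apart.

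Heat shock proteins of the HSP70 family bind exposed hydrophobic stretches of unfolded proteins and release them in a cycle driven by ATP, which J proteins start and nucleotide exchange factors close. HSP90 takes over many clients, such as kinases and hormone receptors, at a later stage of folding, and HSP60 with its lid HSP10 encloses proteins in the mitochondrial matrix. The cytosolic HSP70 and HSP90 proteins also help to load small RNA duplexes into Argonaute proteins, but what was measured here is their mRNA.

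The labels of the vector and of the cell line held in the data, while those of the antibody were not checked. MIR143 was at 0 FPKM in both control groups, at 44781 in miR143_IgG and at 118393 in miR143_AGO. Erythroid markers were above 0 in 8 of 9 rows in control_IgG and in 9 of 9 in the other groups, with a sum of 525 to 1061 FPKM, while 8 markers of lymphoid, liver, stromal, epithelial and endothelial cells summed to 0.714 FPKM at most. The number of fragments is unknown. Set against miR143_AGO, the lowest values that a group lists lay higher by a factor of 12.9 for control_IgG, 1.64 for miR143_IgG and 1.09 for control_AGO, so that values near these edges, whose precision is unknown, begin at a higher level in control_IgG. Rows of 1 coding gene made up 7.90% (control_IgG) and 8.38% (miR143_IgG) of all FPKM in the mock precipitates. With AGO2 they made up 42.0% (control_AGO) and 37.2% (miR143_AGO). The summed FPKM of these coding rows was nonetheless higher in the mock precipitates. It was 223537 (control_IgG) and 217521 (miR143_IgG), against 154895 (control_AGO) and 153092 (miR143_AGO).

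MicroRNAs pair with their targets through the seed (bases 2 to 8). miR-143-3p is the arm of miR-143 searched here, and the MIR143 row does not tell its arms apart. The miRNA and members of the families surveyed that matched HSPA8, the highest chaperone, are shown 5′ to 3′ from RefSeq (GRCh38.p14), with the seed in capitals.
miR-143-3p: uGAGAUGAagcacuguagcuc
miR-17-5p: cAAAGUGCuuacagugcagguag
miR-16-5p: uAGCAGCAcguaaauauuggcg
For miR-143-3p, TCATCTC or CATCTCA was searched on the sense strand of the longest 3′ UTR of each gene (GENCODE 29, GRCh38), and none of the 10 chaperones held either, whereas 22.0% of 19039 coding genes did. The shortest 3′ UTR held none in the 10 genes either, against 10.6% of coding genes. The absence of these letters in the 3′ UTR says nothing about pairing elsewhere in the mRNA.

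Of 5 other families that are common in blood cells, miR-17-5p matched 2 of the 10 chaperones (HSPA8 and HSPA5, 27.3% of coding genes), miR-16-5p matched 2 (HSPA8 and DNAJA1, 24.6%), miR-92a-3p matched HSPA4 (18.1%), let-7a-5p matched HSPA5 (15.5%) and miR-19b-3p matched none (19.1%). The matches in HSPA8 and DNAJA1 are shown because both genes hold one for miR-16-5p (TGCTGCT or GCTGCTA), while HSPA8 was the highest and DNAJA1 among the lowest of the 10 in the AGO precipitates. Capitals mark the match, and lower case the mRNA around it.
HSPA8, miR-17-5p, chr11:123057557-123057564, minus strand: gaaataacattGCACTTTAtaaacactgta
HSPA8, miR-16-5p, chr11:123057632-123057638, minus strand: taaaaagttaaGCTGCTAtagtaagttac
DNAJA1, miR-16-5p, chr9:33039480-33039486, plus strand: ttatcataataTGCTGCTtcttgaaggct
The match for miR-17-5p in HSPA8 is an 8mer, with the A that often follows the seed match. These are matches of letters and not measured sites.

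HSPA8 (chr11:123057489-123063230, minus strand), the constitutive HSP70 of the cytosol known as HSC70, stood far above the other chaperones in every group. It reached 592 FPKM (control_IgG), 520.4 (control_AGO), 589.9 (miR143_IgG) and 442 (miR143_AGO), and ranked 53, 26, 53 and 33 among the rows of 1 coding gene. Its highest and lowest group differed by a factor of only 1.34. HSPA8 alone gave 62.2% of the summed FPKM of the 10 chaperones in control_IgG and 57.2% in miR143_IgG, but 81.1% in control_AGO and 77.1% in miR143_AGO.

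HSP90AB1 (chr6:44246166-44253888, plus strand), the constitutive cytosolic HSP90β, was the other gene with little spread. It had 76.8 FPKM (control_IgG), 51.6 (control_AGO), 102.8 (miR143_IgG) and 61.1 (miR143_AGO), a range of 1.99-fold. HSP90AA1 (chr14:102080738-102139699, minus strand), the stress-inducible HSP90α, had 23.6, 2.40, 45.9 and 4.79 FPKM in the same order of groups. Thus the 2 cytosolic HSP90 mRNAs, whose proteins are close relatives, parted in the AGO precipitates: HSP90AB1 exceeded HSP90AA1 by 3.25-fold in control_IgG and 2.24-fold in miR143_IgG, but by 21.5-fold in control_AGO and 12.8-fold in miR143_AGO.

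The partners of HSP70 in the cytosol were low in both AGO precipitates. HSPA4 (chr5:133051962-133106449, plus strand), an HSP110 protein that exchanges the nucleotide of HSP70, had 29.8 (control_IgG) and 35.2 FPKM (miR143_IgG) in the mock precipitates but 1.21 (control_AGO) and 3.49 FPKM (miR143_AGO) with AGO2. DNAJA1 (chr9:33025211-33039907, plus strand), a J protein that stimulates the ATPase of HSP70, had 25.3 FPKM in control_IgG, 6.99 in miR143_IgG, 1.06 in control_AGO and 1.78 in miR143_AGO. For both genes the IgG values lay above both AGO values.

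In the ER, the 2 chaperones did not run together. HSP90B1 (chr12:103930107-103953645, plus strand), the ER member of the HSP90 family known as GRP94, had 31.3 FPKM (control_IgG), 1.21 (control_AGO), 25.3 (miR143_IgG) and 5.76 (miR143_AGO). HSPA5 (chr9:125234853-125241330, minus strand), the ER HSP70 known as BiP, had 2.20, 3.46, 19.3 and 4.61 FPKM. HSPA5 was the only one of the 10 genes whose lowest group was a mock precipitate, and its value there was the nearest to the low edge of that group, at 12.2 times the edge once transcript length was taken into account.

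Of the mitochondrial chaperones, HSPA9 (chr5:138553756-138575724, minus strand), the HSP70 of the matrix known as mortalin, had 45.9 FPKM (control_IgG), 14.8 (control_AGO), 91.6 (miR143_IgG) and 24.3 (miR143_AGO). HSPD1 (chr2:197486581-197516737, minus strand), the chaperonin HSP60, had 101.2, 44.98, 97.3 and 20.4 FPKM. The joined row of HSPE1 (chr2:197499994-197503457, plus strand), whose product HSP10 is the lid of HSP60, had 23.6, 0.847, 17.2 and 5.07 FPKM. HSPD1 exceeded the HSPE1 row by 4.28-fold in control_IgG, 5.67-fold in miR143_IgG and 4.02-fold in miR143_AGO. In control_AGO, where the HSPE1 row had its lowest value, it did so by 53.1-fold. Rows of HSPE1 pseudogenes, left out of these ratios, held 33.7 FPKM (control_IgG), 5.51 (control_AGO), 8.25 (miR143_IgG) and 0 (miR143_AGO). The annotated spans of HSPD1 and HSPE1 overlap on opposite strands, and whether strand was used in counting is not given in the sources used here.

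**Figure D1:**
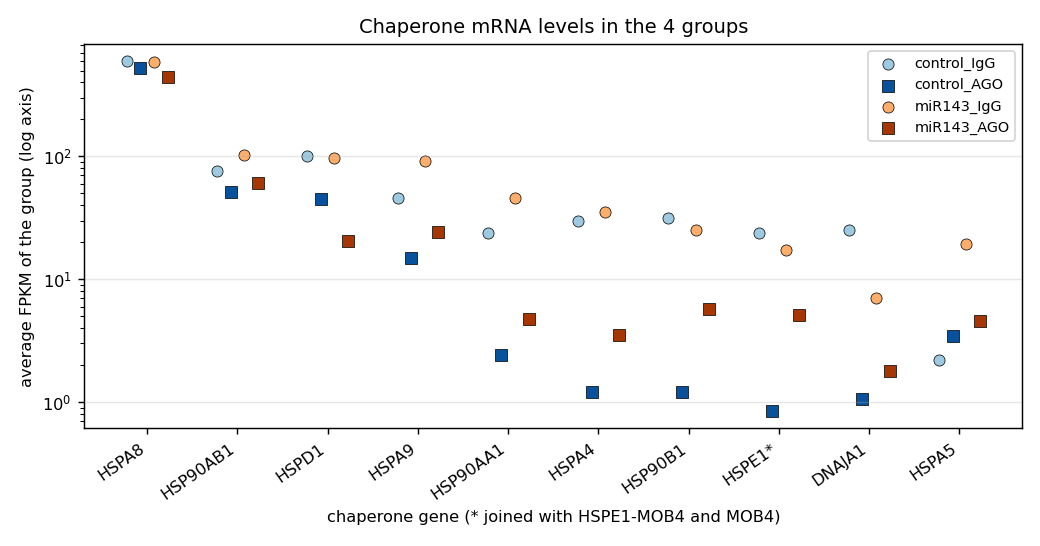
Average FPKM (log axis) of the 10 chaperone genes in the 4 groups, with circles for IgG and squares for AGO precipitates, blue for control cells and orange for miR-143 cells. HSPA8 stays between 442 and 592 FPKM, while 6 genes fall below 6 FPKM in each AGO precipitate. The median of coding rows above 0 is 2.97 FPKM in control_AGO and 3.23 in miR143_AGO.

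The name of abundant chaperones therefore held for the mock precipitates more than for AGO2. Levels of 20 FPKM or more were found for 9 of 10 genes in control_IgG and 7 in miR143_IgG, but for 3 in control_AGO and 4 in miR143_AGO. Fewer than 6 FPKM were found for 1 gene in control_IgG, none in miR143_IgG and 6 in each AGO precipitate. The share of all coding rows past these marks was not counted, and a level does not hold the same rank in each group. At 23.6 FPKM in control_IgG, the HSPE1 row lay above 76.2% of coding rows above 0. At 24.3 FPKM in miR143_AGO, HSPA9 lay above 88.6% of them. The median of the 10 genes was 30.5 FPKM (control_IgG), 2.93 (control_AGO), 40.6 (miR143_IgG) and 5.41 (miR143_AGO), beside 7.76, 2.97, 4.27 and 3.23 for the rows of 1 coding gene above 0. Because of HSPA8, the sum over the 10 genes moved far less, from 952 and 1031 FPKM in the IgG groups to 642 and 573 in the AGO groups. The 9 genes with their own row took a similar share of the summed FPKM of coding genes in all groups, between 0.371% and 0.466%.

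The order of the levels was led by HSPA8 in all 4 groups, and HSP90AB1, HSPD1 and HSPA9 took the next 3 places in each. Below them the order changed from group to group. HSPA5 was last in control_IgG but followed directly on HSPA9 in control_AGO, and DNAJA1 stood above 3 genes in control_IgG but last in both precipitates of the miR-143 cells. With 1 value per group, no neighbours in these orders can be said to differ.

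The comparison of AGO with IgG in control cells asks which chaperone mRNAs were recovered with AGO2 beyond the mock precipitate. Ratios are given as log2 of (FPKM + 1) over (FPKM + 1), which understates the change of low genes. None of the 10 chaperones was at least 2-fold higher in AGO, and 7 were at least 2-fold lower. Over all 9919 rows compared, 34.5% were at least 2-fold higher and 36.2% at least 2-fold lower, and 38.7% were lower among the 5572 rows with a mean of 5 FPKM or more, which every chaperone reached. The median log2 ratio was -2.21 for the 10 genes and -0.19 for all rows. It was lower in more abundant rows, at -0.36 with a mean of 5 FPKM or more and -0.73 with a mean of 50 or more. Of the latter, 43.9% were at least 2-fold lower.

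The lowest ratios of the control cells were those of HSP90B1 (-3.87), HSPA4 (-3.80), the HSPE1 row (-3.74) and DNAJA1 (-3.68). In plain FPKM these 4 were lower in AGO by factors of 25.9, 24.7, 27.9 and 23.9. With the values as deposited, they were also the 4 genes past 10-fold, whereas 9.36% of all rows passed 10-fold in either direction. Of the 9919 rows, 494 were at least 10-fold lower and 434 at least 10-fold higher. HSP90AA1 (-2.86), HSPA9 (-1.57) and HSPD1 (-1.15) followed. With the groups scaled to the same median, HSPA4 (-3.29), the HSPE1 row (-3.26) and DNAJA1 (-3.18) fell short of 10-fold. DNAJA1 did so too with the same upper quartile (-3.30) or coding sum (-3.28). With rows of its pseudogenes added, described further on, the HSPE1 row did so as well (-2.99). HSP90AB1 (-0.56) and HSPA8 (-0.19) stayed within 2-fold, and their sign depended on the scale: HSPA8 turned to 0.48, 0.28 and 0.34 when the groups were scaled to the same median, the same upper quartile or the same sum of coding genes, and HSP90AB1 turned to 0.092 with the same median. HSPA5 alone was above 0 (0.48), on its low value in control_IgG.

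In miR-143 cells, AGO lay below IgG for all 10 chaperones, except that HSPA8 turned from -0.42 to 0.089 when groups were scaled to the same sum of coding genes. At least 2-fold lower were 8 of 10, beside 33.5% of all 10643 rows compared and 35.1% of those with a mean of 5 FPKM or more. None of the 10 was at least 2-fold higher, beside 26.6% of all rows. The median log2 ratio of the chaperones was -1.86, and that of all rows -0.22. It was -0.34 for rows with a mean of 5 FPKM or more and -0.73 for those with 50 or more, of which 45.8% were at least 2-fold lower. HSP90AA1 (-3.02) and HSPA4 (-3.01) were the lowest, followed by HSPD1 (-2.20), HSP90B1 (-1.96), HSPA9 (-1.87), HSPA5 (-1.86), the HSPE1 row (-1.58) and DNAJA1 (-1.52), and HSP90AB1 (-0.74) again stayed within 2-fold. No chaperone passed 10-fold on this scale, beside 5.27% of all rows, although HSPA4 was lower by a factor of 10.1 in plain FPKM.

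**Figure D2:**
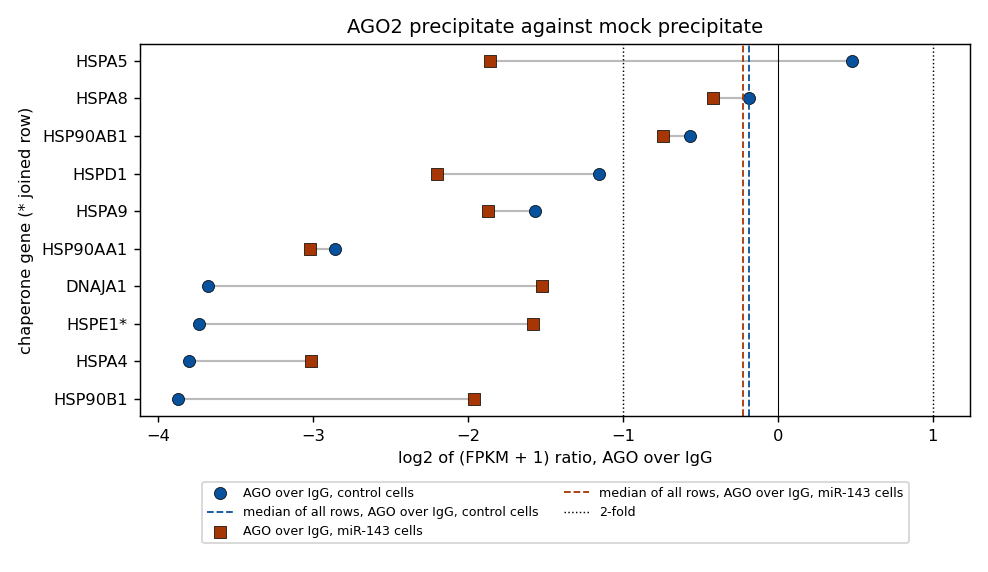
Log2 ratio of AGO over IgG of each chaperone gene in control cells (blue circles) and miR-143 cells (orange squares), with dashed lines at the median of all rows compared and dotted lines at 2-fold. The genes lie left of the dashed lines in both cell populations except HSPA5 in control cells, with HSPA8 on the line there (-0.19).

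The same 7 genes (HSPA4, DNAJA1, HSP90AA1, HSP90B1, HSPA9, HSPD1 and the HSPE1 row) were at least 2-fold lower in AGO than in IgG in both cell populations. That is 70.0% of the chaperones, beside 20.2% of the 5572 rows with a mean of 5 FPKM or more. This mean includes the groups compared, so a row low in AGO can reach it through its IgG values. HSPA4, DNAJA1 and HSP90AA1 did so, each below 5 FPKM in both AGO groups. The filter was also added after the data had been seen. In control cells HSPD1 fell short of 2-fold with the same median (-0.50), upper quartile (-0.69) or coding sum (-0.63), and HSPA9 with the same median (-0.93). The scale moved all rows together: with the same median, the median of all rows shifted by 0.68 (control cells) and 0.16 (miR-143 cells), with the same upper quartile by 0.48 and 0.40, and with the same coding sum by 0.55 and 0.49. Relative to all rows, the median of the chaperones lay between -2.07 and -2.24 for control cells and between -1.65 and -1.74 in miR-143 cells over these scalings and the other pseudocounts. The values as deposited gave slightly smaller gaps, -2.21 against -0.19 in control cells and -1.86 against -0.22 in miR-143 cells. The share of all rows at least 2-fold lower against higher turned from 36.2% and 34.5% to 26.8% and 42.9% in control cells with the same median, and from 33.5% and 26.6% to 25.5% and 34.8% in miR-143 cells with the same coding sum.

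By compartment, the control cells gave median log2 ratios of AGO over IgG of -2.86 for the 5 cytosolic genes, -1.70 for the 2 ER genes and -1.57 for the 3 mitochondrial genes. In miR-143 cells the same medians were -1.52, -1.91 and -1.87. The order of the compartments was thus not the same in the 2 populations, and the range within the cytosol, from -3.80 for HSPA4 to -0.19 for HSPA8 in control cells, was wider than the distance between compartments.

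Base composition moved with these ratios. The GC content of the longest transcript was 41.7% to 50.2% in the 10 chaperones and below the coding median of 49.4% in 9 of them. Over 4188 rows of 1 coding gene with a mean of 5 FPKM or more, the log2 ratio of AGO over IgG rose with GC content (Spearman's rho 0.242 for control cells, 0.285 for miR-143 cells, across genes that share their libraries). In control cells the median of coding rows was -1.10 at 40% to 45% GC, the range of HSPA4, DNAJA1, HSP90B1, HSPA9 and HSPD1, and -0.80 at 45% to 50%, the range of HSPA8, HSP90AA1, HSP90AB1 and HSPA5. In miR-143 cells it was -0.95 and -0.61. Beside rows of their own GC range, 7 of 10 chaperones lay below the median in control cells, and 9 of 10 did so in the miR-143 cells. The part of GC content in the ratios was not tested.

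**Figure D3:**
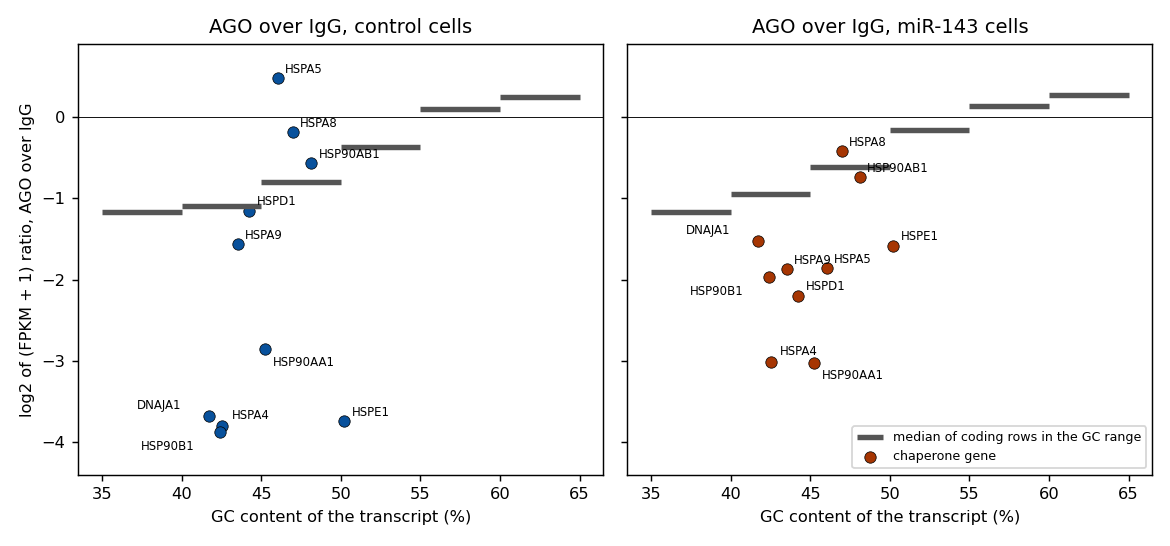
Log2 ratio of AGO over IgG against the GC content of the transcript (%) for the 10 chaperone genes (points), in control cells on the left and miR-143 cells on the right. Grey lines are medians of coding rows in GC ranges of 5 percentage points, the outer ones standing for all rows below 40% and all rows from 60%, and the chaperones sit between 41.7% and 50.2% with 7 and 9 of 10 below the median of their range.

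Lengths differed widely within the set. In the longest transcript, the 3′ UTR measured 198 bases in HSPE1, 245 in HSPA8, 264 in HSP90B1 and 285 in HSP90AB1, but 1739 in HSPA5, 2013 in HSPA4 and 2281 in HSPA9. HSPA8 and HSP90AB1, which stayed within 2-fold, had 3′ UTRs about as short as HSPE1 and HSP90B1, which were lowest in control cells along with HSPA4. Over the 10 chaperones, rho of 3′ UTR length with the ratio of AGO over IgG was 0.055 for control cells and -0.42 for miR-143 cells. Over 4188 coding rows it was 0.076 and 0.048. The part of length in the ratios was not tested.

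To ask what miR-143 changed, miR143_AGO was compared with control_AGO. At least 2-fold higher in miR-143 cells were 3 of 10 chaperones, the HSPE1 row (1.72), HSP90B1 (1.61) and HSPA4 (1.02), and 1 was at least 2-fold lower, HSPD1 (-1.10). With rows of its pseudogenes added, described further on, the HSPE1 row turned to -0.28 and the count of 3 to 2. Over all 9798 rows compared, 17.7% were at least 2-fold higher and 14.1% at least 2-fold lower. None of the chaperones passed 10-fold, beside 1.03% of all rows. The median was 0.56 for the chaperones and 0.17 for all rows.

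The 3 genes that were higher started from 0.847 to 1.21 FPKM in control_AGO and reached 3.49 to 5.76 in miR143_AGO. HSPA4 fell short of 2-fold (0.92) with the same median. HSPD1 went from 44.98 to 20.4 FPKM. HSP90AA1 (0.77), HSPA9 (0.68), DNAJA1 (0.44), HSPA5 (0.33), HSP90AB1 (0.24) and HSPA8 (-0.24) lay within 2-fold. None of these 10 mRNAs holds a seed match for miR-143-3p in its longest 3′ UTR, as given above.

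The mock precipitates were compared in the same way, since they show how far levels differ with no antibody against AGO2. HSPA5 was at least 2-fold higher in miR-143 cells (2.67, from 2.20 to 19.3 FPKM) and DNAJA1 at least 2-fold lower (-1.72, from 25.3 to 6.99 FPKM). Beside these 1 and 1 of 10, 36.2% of all 10172 rows were at least 2-fold higher and 26.8% at least 2-fold lower, and 8.87% passed 10-fold, against none of the chaperones. HSPA9 (0.98), HSP90AA1 (0.93), HSP90AB1 (0.42), HSPA4 (0.23), HSP90B1 (-0.29) and the HSPE1 row (-0.44) lay within 2-fold with the values as deposited. HSPA9 passed 2-fold with the same median (1.25), upper quartile (1.16) or coding sum (1.02) and with pseudogenes added (1.08), HSP90AA1 with the same median (1.197) or upper quartile (1.10), and the HSPE1 row with pseudogenes added (-1.14). HSPA8 (-0.01) and HSPD1 (-0.06) hardly differed, and both turned to above 0 with the same median (0.27 and 0.22) or the same upper quartile (0.17 and 0.12), and HSPA8 with the same coding sum too (0.033).

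**Figure D4:**
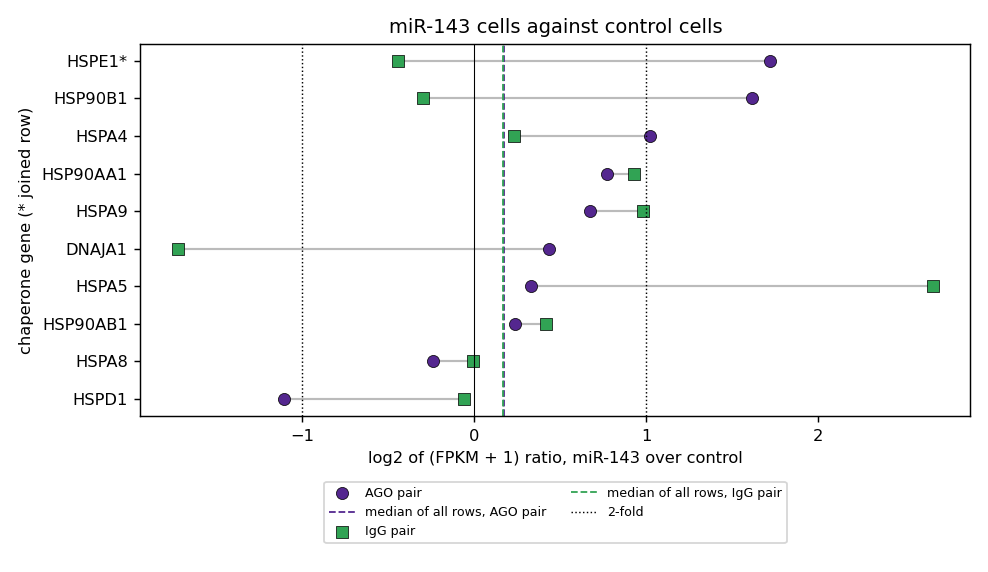
Log2 ratio of miR-143 over control cells of each chaperone gene in the AGO precipitates (purple circles) and the IgG precipitates (green squares), with dashed lines at the median of all rows and dotted lines at 2-fold. The HSPE1 row and HSP90B1 lie at 1.72 and 1.61 in AGO and below 0 in IgG, and HSPA5 lies at 2.67 in IgG and 0.33 in AGO.

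The IgG-corrected ratio divides AGO over IgG in miR-143 cells by AGO over IgG in control cells, and shares all 4 groups with the comparisons above. It was at least 2-fold higher for the HSPE1 row (2.16), DNAJA1 (2.15) and HSP90B1 (1.91), and at least 2-fold lower for HSPA5 (-2.34) and HSPD1 (-1.05). With pseudogenes added, the HSPE1 row (0.87) and HSPD1 (-0.99) fell short of 2-fold. These are 3 and 2 of 10, beside 29.0% and 33.5% of all 11914 rows, and none passed 10-fold, beside 10.3% of all rows. HSPA4 (0.79), HSP90AA1 (-0.16), HSP90AB1 (-0.18), HSPA8 (-0.23) and HSPA9 (-0.31) lay within 2-fold. With pseudocounts of 0.1 and 0.01, HSPA4 passed 2-fold (1.22 and 1.28), which makes 4 genes higher, and HSP90AA1 turned to 0.013 and 0.036. The median was -0.17 for the chaperones and -0.09 for all rows. For DNAJA1 the ratio came with a lower IgG value in miR-143 cells, and for HSPA5 with a higher one, while their AGO values differed by less than 2-fold.

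Processed pseudogenes, intronless copies of an mRNA elsewhere in the genome, can take fragments from several chaperones. Of 78 rows named as pseudogenes of the 10 genes, 8 were above 0. HSPE1P2 had 33.7 FPKM (control_IgG), 2.49 (control_AGO), 8.25 (miR143_IgG) and 0 (miR143_AGO), and thus exceeded the HSPE1 row in both control groups. Adding the HSPE1 pseudogenes to the HSPE1 row turned its ratio between the AGO precipitates from 1.72 to -0.28, so that the direction of HSPE1 depends on how these fragments were assigned. HSPA9P1 had 6.59 FPKM in miR143_IgG and 0.708 or less in the other groups. The pseudogene rows of DNAJA1, HSP90AA1, HSP90AB1 and HSP90B1 were all listed at 0, and those of HSPA8 summed to 0.360 FPKM at most.

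Among 532 rows of 1 coding gene with a mean of 50 FPKM or more, those nearest to the mean profile of the chaperones over the 4 groups were UQCR10, TMSB10, TIMM10, HIST1H4H and PRKCSH, at Euclidean distances of 0.156, 0.162, 0.199, 0.230 and 0.251 of centred log2 values. The mean profile of the 9 chaperones with their own row was 0.76 (control_IgG), -1.15 (control_AGO), 1.11 (miR143_IgG) and -0.73 (miR143_AGO). UQCR10, a subunit of respiratory complex III, had 154 FPKM (control_IgG), 36.2 (control_AGO), 169.7 (miR143_IgG) and 49.2 (miR143_AGO). TIMM10, a small chaperone of the mitochondrial intermembrane space, had 80.7, 24.0, 105 and 32.9 FPKM. The likeness is over 4 values only, and to an average rather than to single chaperones. Each chaperone lay farther from this average than the 5 rows did, from 0.508 (HSPA9) to 2.02 (HSPA5). Of the chaperones, only HSPA8, HSP90AB1 and HSPD1 reached the mean of 50 FPKM asked of these rows.

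The wider chaperone network was described with 10 lists of 123 genes, of which 121 were found. In miR143_AGO, 12 of 93 rows lay at least 2-fold above control_AGO and 10 at least 2-fold below it, with a median of 0.05, beside 17.7% and 14.1% of all rows and their median of 0.17. Against the mock precipitate, 41 of 95 rows were at least 2-fold lower in AGO and 19 higher in control cells (median -0.71), and 43 of 101 were lower and 13 higher in miR-143 cells (median -0.80). Of all rows, 36.2% were lower and 34.5% higher in control cells (median -0.19), and 33.5% lower and 26.6% higher in the miR-143 cells (median -0.22), and each list below is to be read against these shares. The 10 chaperones above were not counted in these lists.

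The cytosolic chaperonin TRiC/CCT, a ring that folds actin and tubulin, and prefoldin, which hands it these clients, lay lowest as groups. Of the 8 TRiC/CCT rows, 6 were at least 2-fold lower in AGO in control cells (median -1.31) and 7 in miR-143 cells (median -1.56). CCT8 had 53.7 FPKM (control_IgG), 2.25 (control_AGO), 47.5 (miR143_IgG) and 7.07 (miR143_AGO), and CCT5 had 125, 58.1, 92.2 and 45.5. CCT2 had 1.64 FPKM in control_IgG and 5.54 in control_AGO, but 107.9 in miR143_IgG and 13.6 in miR143_AGO, and like HSPA5 was above IgG only in the control cells. Prefoldin was at least 2-fold lower in 4 of 6 rows in control cells (median -1.29) and in 6 of 6 in miR-143 cells (median -2.44), with PFDN5 at 113, 20.9, 143.8 and 29.8 FPKM. PFDN1 was listed at 0 in control_IgG and had 2.95, 15.6 and 2.67 FPKM in the other groups.

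Partners of HSP70 and HSP90 were more mixed, beside 36.2% lower and 34.5% higher of all rows in control cells and 33.5% and 26.6% in the other population. Of the HSP90 co-chaperones, 4 of 12 rows were at least 2-fold lower and 1 higher in AGO in control cells, and 5 of 13 lower and 3 higher in miR-143 cells. STIP1, the adaptor that links HSP70 to HSP90, had 34.8 FPKM (control_IgG), 4.70 (control_AGO), 48.7 (miR143_IgG) and 15.9 (miR143_AGO), whereas CDC37, which brings kinases to HSP90, had 48.8, 52.9, 23.6 and 28.1. Among J proteins, 9 of 25 were lower and 6 higher in control cells, and 11 of 24 lower and 6 higher in miR-143 cells. DNAJA3, the mitochondrial J protein, had 90.9, 55.1, 39.7 and 10.8 FPKM and was the lowest of its list between the AGO precipitates (-2.24). Nucleotide exchange factors were lower in 4 of 8 and higher in 2 in control cells, and lower in 4 of 10 with none higher in miR-143 cells. BAG1 had 8.39, 1.51, 23.7 and 5.09 FPKM.

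ER and mitochondrial factors did not share the low ratios of HSP90B1 and HSPD1 as groups, and their shares lay below those of all rows (36.2% lower and 34.5% higher for control cells, 33.5% and 26.6% for miR-143 cells). Of ER folding factors, 4 of 13 rows were lower and 4 higher in AGO in control cells (median -0.30), and 3 of 14 lower and 2 higher in miR-143 cells (median -0.38). ERP29 had 18.0 FPKM (control_IgG), 141 (control_AGO), 36.6 (miR143_IgG) and 58.2 (miR143_AGO), and SDF2L1 had 71.3, 35.6, 61.8 and 19.3. Mitochondrial chaperones and proteases were lower in 3 of 9 and higher in 3 in control cells (median 0.25), and lower in 1 and higher in 1 of 9 in miR-143 cells (median -0.20). YME1L1, a protease of the inner membrane, had 23.5, 18.7, 49.6 and 37.6 FPKM.

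Other HSP70 genes were lower in 1 of 4 rows in control cells and 3 of 6 in miR-143 cells (36.2% and 33.5% of all rows), and none was higher (34.5% and 26.6%). HSPA1A had 21.3, 3.64, 14.6 and 4.35 FPKM and HSPA1B had 12.98, 17.8, 1.68 and 4.13, but the 2 are near-identical copies and the split between them is uncertain. HYOU1, the large HSP70-like chaperone of the ER, had 24.8, 39.0, 35.5 and 19.9 FPKM. Small heat shock proteins had few rows to compare, 1 of 2 lower in control cells and 1 of 3 in miR-143 cells, and HSPB1 varied as little as HSPA8, with 164, 159, 177 and 178 FPKM. Of the transcription factors of the heat shock and unfolded protein responses, 5 of 8 rows were lower and 1 higher in control cells, and 2 lower and 1 higher of 8 in miR-143 cells. HSF1, the factor that switches on heat shock genes, had 34.6 FPKM (control_IgG), 11.1 (control_AGO), 12.7 (miR143_IgG) and 16.01 (miR143_AGO).

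**Figure D5:**
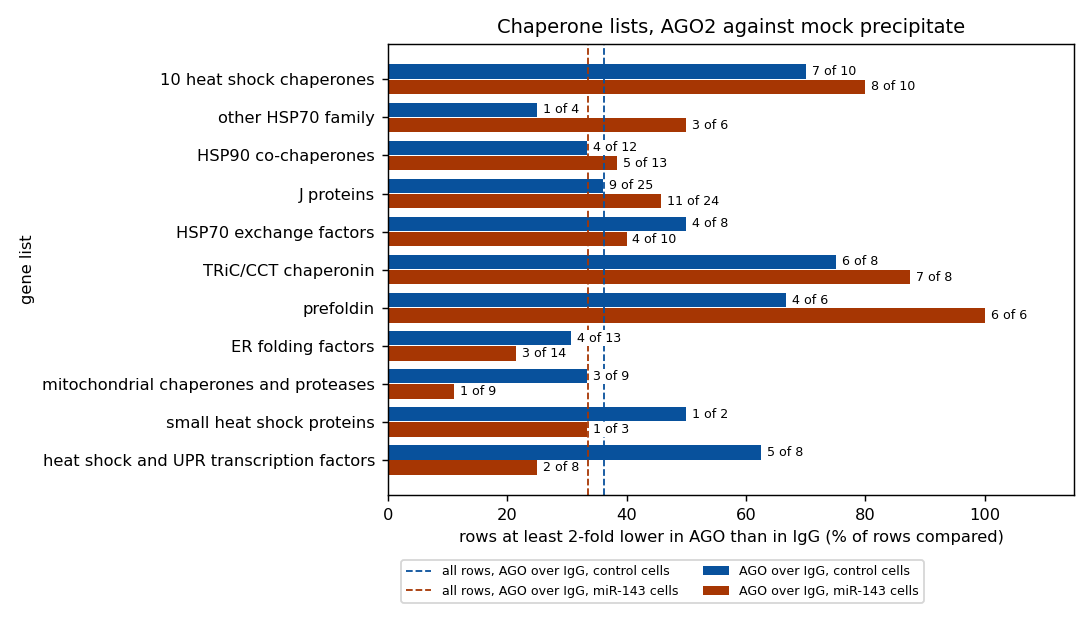
Share of rows (% of rows compared) that were at least 2-fold lower in AGO than in IgG for the 10 heat shock chaperones and for 10 lists of other chaperone genes, in control cells (blue) and miR-143 cells (orange), with the counts at the bars and dashed lines at the share of all rows (36.2% and 33.5%). The 10 chaperones, TRiC/CCT and prefoldin lie above both lines in both populations, as do the exchange factors with 4 of 8 and 4 of 10.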

How the data were processed

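Total RNA of AGO2 or IgG precipitates was depleted of ribosomal RNA and sequenced as paired ends, per the labels, while the methods of the study name a TruSeq RNA kit. The authors deposited 1 table per group with the average FPKM of each gene row, made with TopHat and Cufflinks on hg38. Versions and annotation are not given in the sources used here. Fragment numbers are unknown, and replicate values were not used here, so no test was run.

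Rows were taken where 1 of the names in the gene column equals a chaperone gene. Groups follow the sample titles. Log2 ratios used a pseudocount of 1 over rows that reached an FPKM of 1 in a compared group (Python 3.11.15, pandas 2.3.3, numpy 2.4.6, scipy 1.17.1), and the scripts were tested on simulated data. All 10 chaperones are named in each comparison, as are MIR143, the 5 rows with the nearest profile and, of each list, some of the up to 2 highest and 2 lowest ratios between the AGO precipitates. Chaperones and lists were chosen with earlier results of these data known. Transcripts and coordinates came from GENCODE 29 (GRCh38, the assembly of hg38) and mature miRNAs from RefSeq. The low edge of a group is the 10th lowest product of FPKM and transcript length above 0. Alternatives were 2 other pseudocounts, 3 scalings, other filters, summing of rows of 1 name and adding of pseudogene rows.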

Additional observations from a re-analysis of the deposited data

Results flagged for a closer look

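HSPA5 had an IgG-corrected log2 ratio of -2.34, because AGO lay above IgG in control cells (0.48) and below it in miR-143 cells (-1.86). The difference was not tested, as each group has 1 average. HSPA9P1, a pseudogene of HSPA9, had 6.59 FPKM in miR143_IgG and was listed at 0 in control_IgG.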

How the results depend on the processing

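No paired analysis was possible because each group holds 1 average, so leaving out a replicate was not run either. Alternatives were pseudocounts of 0.1 and 0.01, scaling to the same median, upper quartile or coding sum, summed rows and added pseudogenes. Under these, the median log2 ratio of the chaperones kept its sign and its side of 2-fold in each comparison, and lay between -2.46 and -1.61 (AGO over IgG, control cells), -2.01 and -1.39 (AGO over IgG, miR-143 cells), 0.38 and 0.73 (AGO precipitates), 0.11 and 0.39 (IgG precipitates), and -0.62 and -0.07 (IgG-corrected). Of the counts past 2-fold, those that moved by more than 1.5 times were these 6. Chaperones at least 2-fold higher between the IgG precipitates numbered 1, but 3 with the same median or upper quartile and 2 with the same coding sum or with pseudogenes added. With pseudogenes added, 2 rather than 1 were at least 2-fold lower between the IgG precipitates, and 1 rather than 2 in the IgG-corrected ratio.

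Signs turned for values near 0: HSPA8 between the IgG precipitates to 0.27 (median), 0.17 (upper quartile) and 0.033 (coding sum), HSPD1 there to 0.22 (median) and 0.12 (upper quartile), HSPA8 over IgG to 0.48, 0.28 and 0.34 (control cells) and to 0.089 (miR-143 cells, coding sum), HSP90AB1 over IgG to 0.092 (control cells, median), and HSP90AA1 in the IgG-corrected ratio to 0.013 and 0.036 with pseudocounts of 0.1 and 0.01. HSPE1 between the AGO precipitates turned to -0.28 with pseudogenes added. At least 2 and at most 4 chaperones were 2-fold higher in the IgG-corrected ratio (3 as deposited), and 2 or 3 between the AGO precipitates. At least 5 and at most 7 chaperones were 2-fold lower than IgG in control cells under these, and always 8 in the miR-143 cells. The filter at a mean of 5 FPKM and the low edge were added after the data had been seen. The marks of 20 and 6 FPKM were not set in advance. FPKM divides by all fragments. Coding rows made up a smaller share of summed FPKM in IgG, although their own FPKM sum was higher there. A share of summed FPKM is not a share of fragments. Without fragment numbers, the precision of the low values in control_IgG and control_AGO is unknown.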
